A study of Arabidopsis thaliana with 4 samples.

Results

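The 10 core genes of the Arabidopsis thaliana circadian clock, CCA1, LHY, PRR9, PRR7, PRR5, GI, TOC1, LUX, ELF3 and ELF4, were examined for SMXL6 binding among 27444 nuclear protein-coding genes. They were chosen by name, and each peak within 5000 bp of a gene was taken. Chromatin of whole seedlings aged 2 weeks was immunoprecipitated with an antibody to the HA tag and the DNA sequenced (ChIP-seq). The bound group (2 libraries) was the smxl6/7/8 triple mutant carrying pSMXL6:SMXL6-HA, in which the SMXL6 promoter drives the tagged protein, and the control group (2 libraries) was the smxl6/7/8 triple mutant with no transgene. All plants therefore lacked SMXL6, SMXL7 and SMXL8 of their own and differed in the transgene. Seedlings grew in days of 16 h light and 8 h dark at 21 °C. The hour of harvest, the number of transgenic lines and whether replicates were separate cultures are not given in the labels, so differences between replicates may be technical.

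The clock is a loop of transcriptional repressors that are made in turn over the day. CCA1 and LHY, MYB-like proteins made at dawn, repress evening genes, and the pseudo-response regulators PRR9, PRR7, PRR5 and TOC1 follow one another and repress CCA1 and LHY. LUX, ELF3 and ELF4 form the evening complex, which represses genes such as PRR9 at night, while GI, a large plant-specific protein, acts in the evening through protein stability and day-length control of flowering. SMXL6 is a repressor of strigolactone signalling that is destroyed when the hormone is perceived.

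Each SMXL6-HA library was compared by the authors with the control library of the same number, which gave 2 peak lists. There were 1789 peaks in list 1 (median width 2824 bp) and 1442 in list 2 (1236 bp). The score of each peak is the authors' own value, with a median of 92.0 in list 1 and 89.2 in list 2, and rank 1 is the highest score of a list. Read depth is unknown, so no interval can be given on a score, and no peak means only that none was called at this depth. Peak positions are on the build TAIR10. No strand was at hand, so positions below or above a gene are those with smaller or larger coordinates on the chromosome, and which end is the promoter is not stated. A peak is called the gene's own where that gene has the protein-coding gene end nearest to its midpoint.

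Of the 10 clock genes 6 had a peak within 5000 bp in both lists: CCA1, LHY, PRR9, PRR5, LUX and ELF4. Among all protein-coding genes the share was 12.2%. GI had a peak in list 2 alone and TOC1 in list 1 alone, while PRR7 and ELF3 had none in either. Each list thus reached 7 of the 10 genes, against 21.4% of all genes in list 1 and 15.4% in list 2. These are counts over named genes with no test, since the lists hold no value per library.

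From overlap (0 bp) to 5000 bp, the count stayed at 7 of 10 in list 1 and rose from 4 to 7 in list 2. In both lists it rose from 4 to 6, while the share of all genes rose from 3.4% to 12.2%. A peak overlapped the gene itself in both lists at CCA1, LHY, LUX and ELF4, 4 of 10, against 3.4% of all genes. In list 1 alone this held for 7 of 10 (8.58% of all genes) and in list 2 for the same 4 (4.59%). Within 1000 bp PRR5 joined them, 5 of 10 against 5.13%. The sixth gene, PRR9, was reached in both lists only when the distance was widened from 3000 bp to 5000 bp. From a clock gene to the nearest list 1 peak the median distance was 0 bp, against 21199 bp over all genes, and for list 2 it was 626.5 bp against 28961.5 bp.

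**Figure D1:**
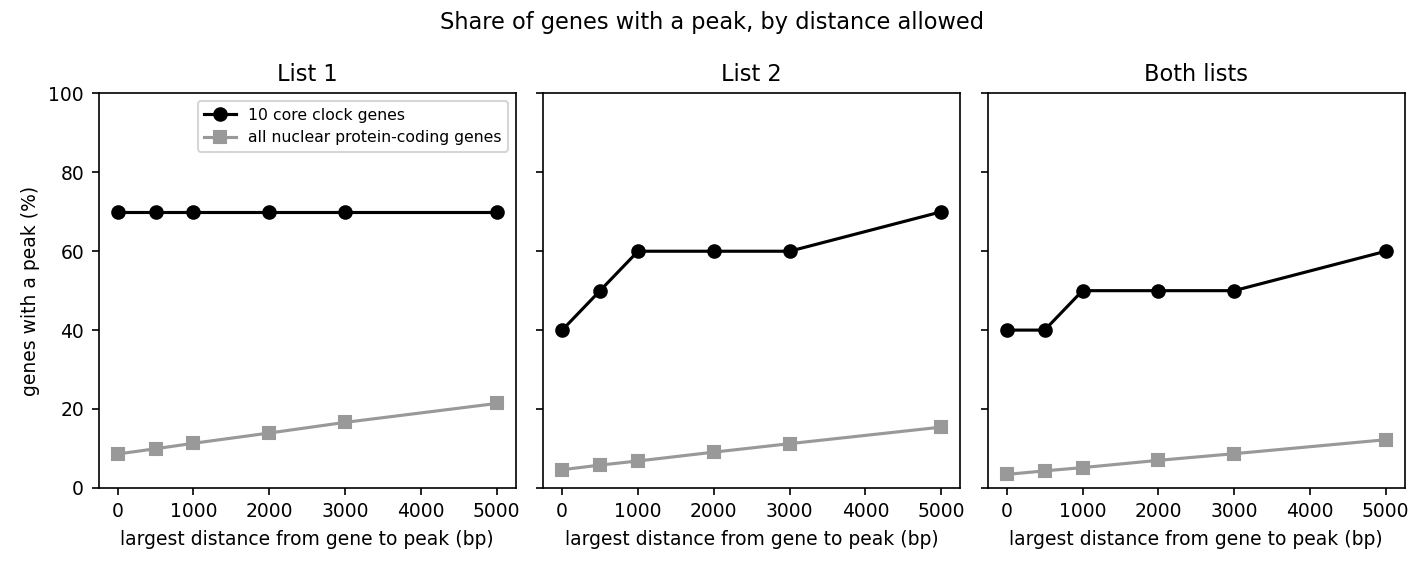
Percentage of genes with a peak (vertical axis) by the largest distance allowed between gene and peak in bp (horizontal axis), for the 10 core clock genes (black circles) and all 27444 nuclear protein-coding genes (grey squares), in list 1, list 2 and both. The clock genes stay at 7 of 10 in list 1 at every distance, and rise from 4 to 6 of 10 in both lists.

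The morning genes CCA1 and LHY were both reached in both lists. At LHY the peaks lay over the upper end of the gene. In list 1 the peak spanned chromosome 1, 37179 to 38799, with a score of 184.26 (rank 326). In list 2 it spanned 37366 to 38677, inside the former, with a score of 168.61 (rank 334). Both midpoints stood just above the gene, 118 bp and 150.5 bp from its end. LHY was thus the nearest gene in both lists, with scores of similar standing.

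CCA1, the close relative of LHY, had peaks over its lower end, and the lists differed in their shape. In list 2 a peak of 1252 bp at chromosome 2, 19244802 to 19246053, had a score of 213.13 (rank 240) and a midpoint 163.5 bp below the gene. In list 1 the peak was 4408 bp wide, 19241843 to 19246250, with a score of 63.5 (rank 1381). It contained the whole list 2 peak and the whole of the neighbouring gene PSI-P, and PSI-P rather than CCA1 had the end nearest to its midpoint. The 2 lists therefore placed a peak on the same end of CCA1, but only list 2 centred it there.

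**Figure D2:**
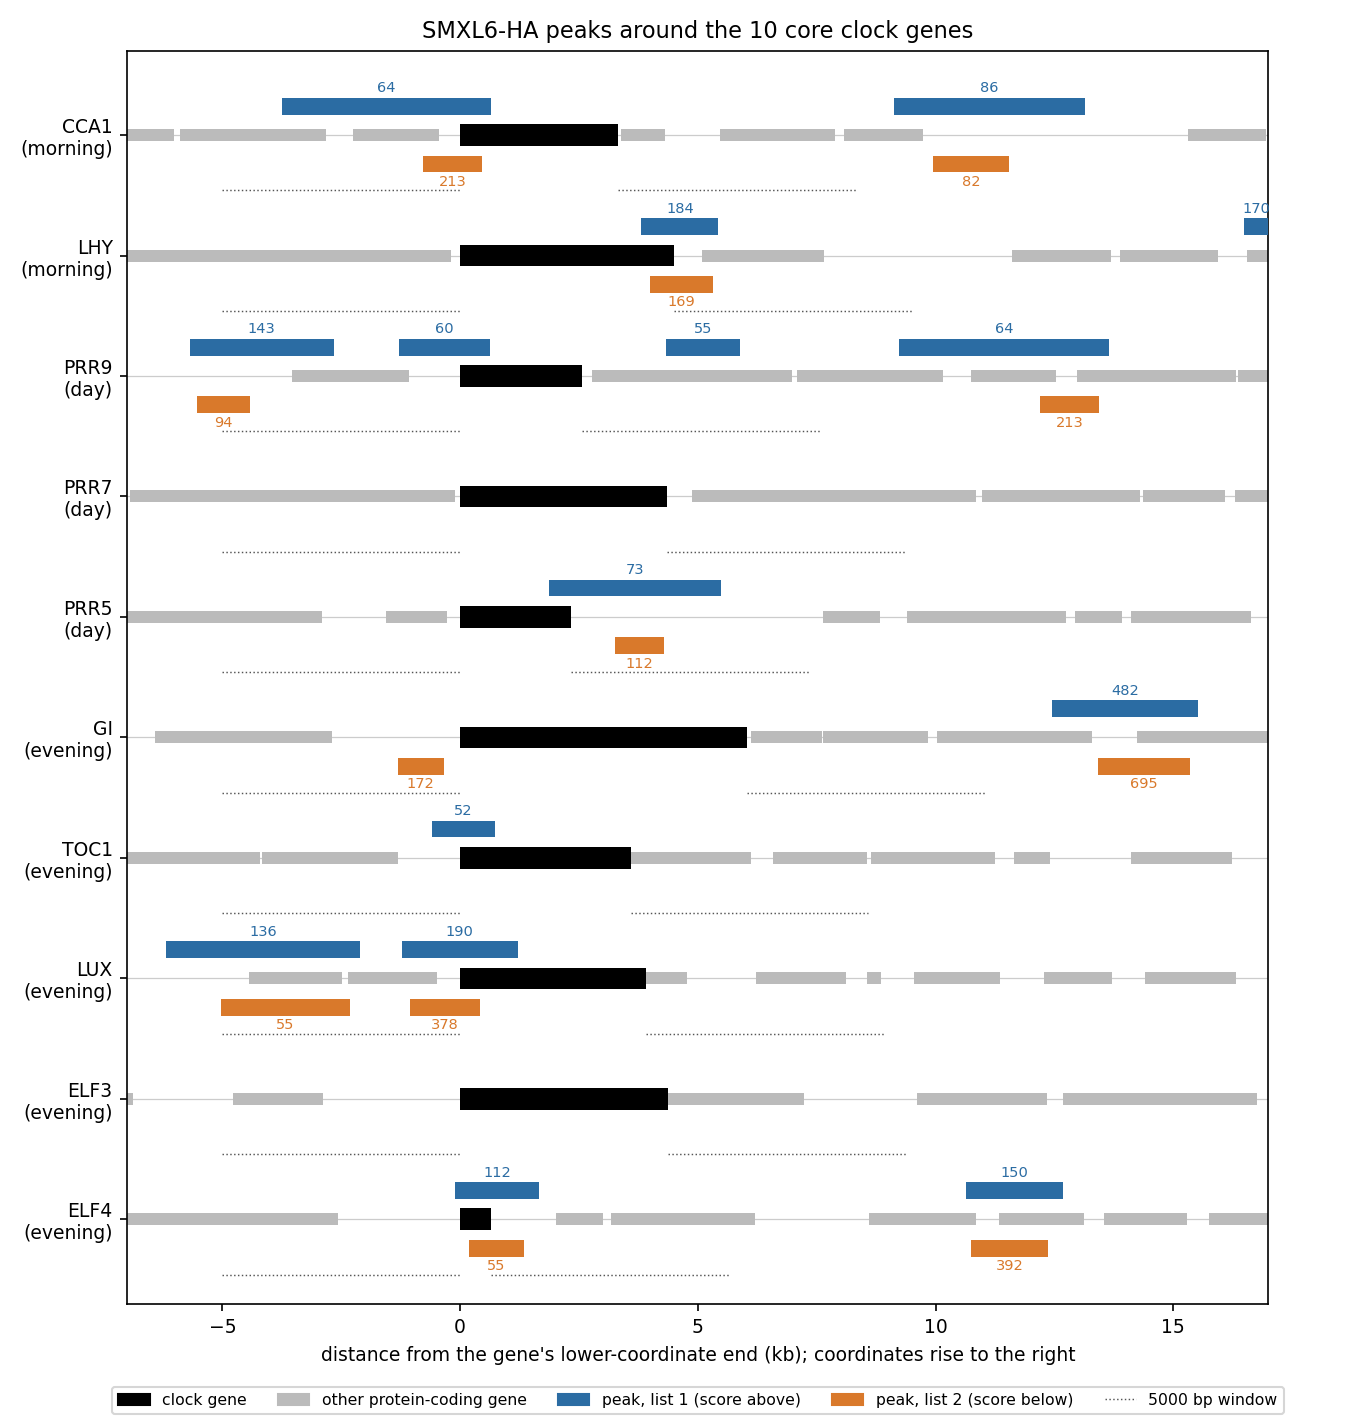
Peaks of list 1 (blue, score written above) and list 2 (orange, score written below) around each core clock gene (black bar), with other protein-coding genes in grey; the horizontal axis is the distance in kb from the gene's lower-coordinate end, and dotted lines mark the 5000 bp windows. Peaks of both lists stack on one end of CCA1, LHY and LUX and over most of the short gene ELF4, and PRR7 and ELF3 have no peak in view.

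Of the pseudo-response regulator genes of the day, PRR5 had its own peak in both lists, PRR9 in list 1 alone and PRR7 in neither. At PRR5 the peaks lay above the gene. The list 1 peak, chromosome 5, 8358076 to 8361698, had a score of 73.49 (rank 1155) and ran over the upper 471 bp of the gene. The list 2 peak, 8359461 to 8360500, had a score of 112.31 (rank 561) and stood 915 bp from the gene. Their midpoints were 1341 bp and 1434.5 bp from the gene, the farthest of any own peak of a clock gene. PRR5 has a flank of 5284 bp free of protein-coding genes on that side, against a median of 649.5 bp over all genes, and the part of flank length in this result was not tested. A long non-coding RNA gene, AT5G03755, lies under both peaks and was nearer to both midpoints than PRR5 when genes of every type were counted.

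PRR9 had 3 peaks in list 1 and 1 in list 2. The only one over the gene was a low-scoring list 1 peak at its lower end, chromosome 2, 19231327 to 19233231 (score 59.58, rank 1480), with no counterpart in list 2. The site found in both lists lay farther below, at 19226918 to 19229951 in list 1, where its score was 143.34 (rank 478), and at 19227063 to 19228179 in list 2, where it was 94.31 (rank 682). It was 2656 bp and 4428 bp from PRR9, and both midpoints were nearest to AT2G46780. The last list 1 peak, 1762 bp above PRR9 with a score of 55.07, was nearest to the gene ZAT. PRR9 and CCA1 are separated by 10411 bp and 3 protein-coding genes on chromosome 2, and no peak was counted for both.

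PRR7 had no peak within 5000 bp. The nearest stood 12195 bp below it in list 1, with a score of 52.27 (rank 1719), and 97388 bp above it in list 2. Among all protein-coding genes 64.1% were this far or farther from a list 1 peak and 16.0% from a list 2 peak. TOC1, the evening member of this family, had a single list 1 peak over its lower end at chromosome 5, 24674380 to 24675695. Its score of 51.8 (rank 1737) was close to the lowest of that list, 50.01. The nearest list 2 peak to TOC1 was 28439 bp away, so the site was seen in one list and at its edge.

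GI had 1 peak, in list 2, at chromosome 1, 8060435 to 8061413 (score 171.86, rank 328), 338 bp below the gene and with GI as the nearest gene. No list 1 peak lay there. It was the only one of the 8 list 2 clock peaks without a list 1 partner. The share of all list 2 peaks with such a partner was not worked out. Just outside the 5000 bp limit above GI lay a high-scoring site of both lists, 6400 bp away in list 1 (score 482.46, rank 50) and 7378 bp away in list 2 (score 695.03, rank 23). AT1G22830 had the nearest gene end to that site. At CCA1 a site of both lists also lay just outside, 5809 bp and 6614 bp above the gene, with scores of 86.34 and 81.89 and the gene PPa3 nearest.

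The evening complex was split. LUX, its DNA-binding MYB-like subunit, carried the highest-scoring clock peak of both lists, while ELF3, the scaffold of the complex, had no peak nearby. The LUX peaks lay across its lower end. In list 1 the peak spanned chromosome 3, 17181811 to 17184257, with a score of 190.28 (rank 308). In list 2 it spanned 17181980 to 17183464, with a score of 377.53 (rank 97). The gap between LUX and the gene below it, AT3G46630, is 481 bp, and both peaks spanned it and ran into both genes. The list 1 midpoint was 8 bp from the end of LUX, whereas the list 2 midpoint was 320 bp from LUX and 162 bp from AT3G46630, so LUX was the nearest gene in list 1 alone. A second site of both lists, 2098 bp and 2326 bp below LUX, had scores of 136.19 and 54.68. It was nearest to RDUF1 among protein-coding genes. The non-coding gene MIR5651 lies under both peaks and was nearer to both midpoints when genes of every type were counted.

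ELF4, a short gene of 660 bp that encodes a small regulator of ELF3, was covered wholly by its list 1 peak at chromosome 2, 16734178 to 16735955 (score 111.88, rank 680). The list 2 peak, 16734482 to 16735630, covered 71.5% of the gene with a score of 54.62 (rank 1298). Both midpoints were just above ELF4, at 113.5 bp and 103 bp, and both peaks also overlapped the long non-coding RNA gene AT2G09110. ELF4 was the nearest gene in both lists, though its list 2 score was among the lower ones. ELF3 had its nearest peak 56890 bp away in list 1 and 210380 bp away in list 2. Among all protein-coding genes 22.3% were this far or farther from a list 1 peak and 5.04% from a list 2 peak.

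Taking a gene's own peaks only, LHY, PRR5 and ELF4 had one in both lists, 3 of 10 against 3.11% of all genes. List 1 gave 6 such genes (6.19% of all genes) and list 2 gave 5 (4.85%), with PRR9, TOC1 and LUX in list 1 alone and CCA1 and GI in list 2 alone. The stricter rule matters here because a peak had a median of 4 protein-coding genes within 5000 bp in list 1 and 3 in list 2. By side, CCA1, PRR9 and LUX had peaks below the gene in both lists (5.27% of all genes) and LHY, PRR5 and ELF4 above it (5.31%). No clock gene had a peak with its midpoint inside the gene in both lists, against 0.991% of all genes, and in list 1 TOC1 alone did (3.07% of all genes).

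The scores of these peaks spread over most of each list. In list 1 the 10 peaks had scores from 51.8 to 190.28 with a median of 92.7, close to the 92.0 of all peaks. In list 2 the 8 peaks ran from 54.62 to 377.53 with a median of 140, against 89.2 of all peaks. The best rank, that of LUX, was 308 in list 1 and 97 in list 2. LHY and LUX alone had a peak with a score of at least 100 within 5000 bp in both lists, 2 of 10 against 5.33% of all genes. A list 2 peak overlapped 7 of the 10 list 1 peaks. The 3 without one, at PRR9 (a pair) and TOC1, had the lowest scores of the 10. The same share over all list 1 peaks was not worked out, so neither point can be called a trait of clock peaks.

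**Figure D3:**
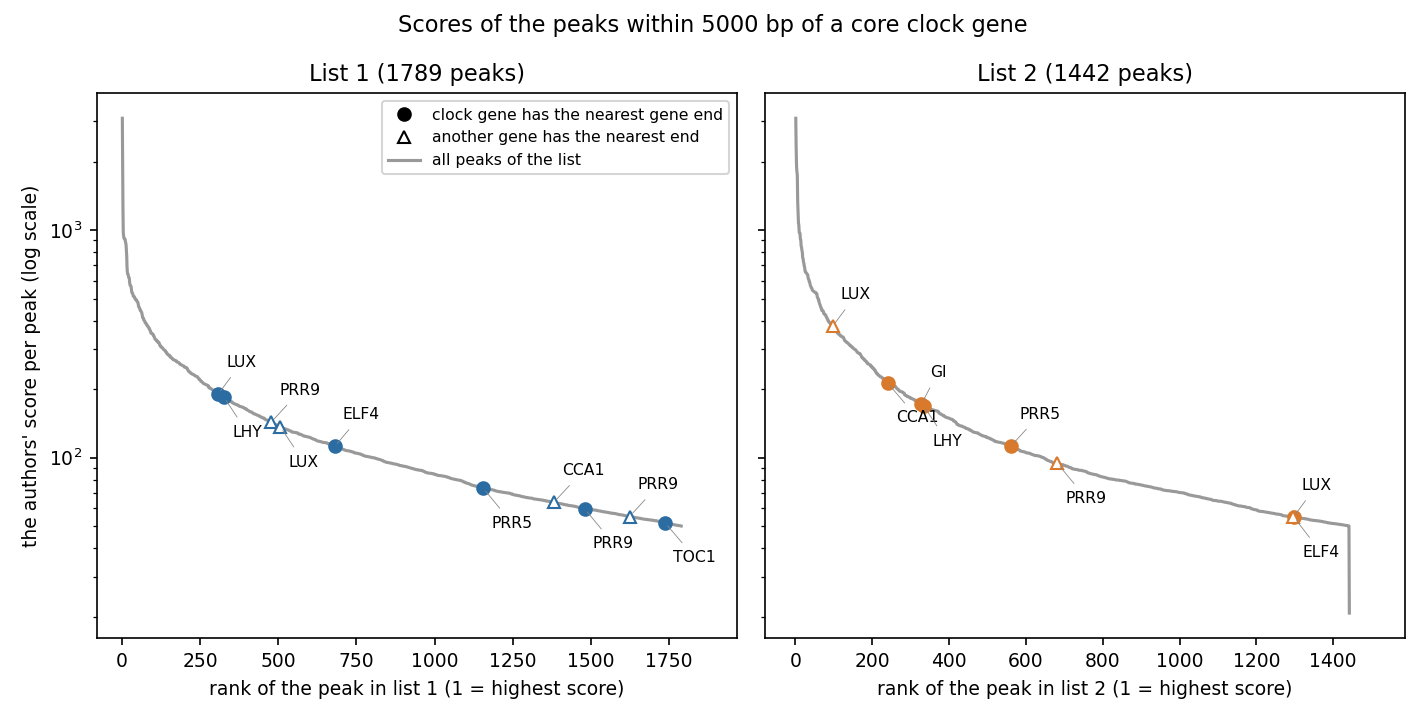
Score of each peak (vertical axis, log scale) by its rank in the list (horizontal axis), for list 1 (left) and list 2 (right); the grey line is every peak, filled circles are peaks with the clock gene nearest and open triangles are peaks with another gene nearest. The LUX peak leads in both panels, at rank 308 and rank 97, and the TOC1 peak of list 1 is near the end of its list at rank 1737.

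Grouped by the usual time of day at which their transcripts peak, 2 of 2 morning genes (CCA1 and LHY), 2 of 3 day genes (PRR9 and PRR5 of PRR9, PRR7 and PRR5) and 2 of 5 evening genes (LUX and ELF4 of GI, TOC1, LUX, ELF3 and ELF4) had peaks in both lists, against 12.2% of all genes. With a gene's own peaks only, each class had 1 gene, namely LHY, PRR5 and ELF4, against 3.11% of all genes. The highest score in both lists was that of LUX, in the evening class, which also held the lowest. In list 1 the best peak per gene scored 63.5 and 184.26 in the morning class, from 73.49 to 143.34 in the day class and from 51.8 to 190.28 in the evening class. In list 2 these values were 168.61 and 213.13 for the morning class, 94.31 and 112.31 for the day class and 54.62 to 377.53 for the evening class. All are peaks within 5000 bp, whichever gene end was nearest. Another gene had the nearest end at the CCA1 peak of list 1 (63.5) and the LUX peak of list 2 (377.53). This also held for the PRR9 peaks of both lists (143.34 and 94.31). The ranges of the morning and evening classes overlapped in both lists. The day class overlapped both others in list 1, but in list 2 its scores lay below both morning scores. With classes of 2 to 5 genes no difference between them was tested.

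A wider list of 33 clock-associated genes, of 37 named, was placed beside the core. Of these 10 had a peak within 5000 bp in both lists (12.2% of all genes) and 6 had a peak of their own in both (3.11%). The best scores per gene reached 403.85 in list 1 and 379.42 in list 2, against 190.28 and 377.53 in the core. Among the relatives of CCA1 and LHY, RVE1, a MYB-like output factor that raises auxin synthesis, had its own peaks over its upper end (scores 129.2 and 115.83). A stronger site farther out (403.85 and 289.36) was nearest to UGP2. RVE2 had a list 1 peak of its own with a score of 103.72. It also had a site of both lists nearest to AT5G37270 among protein-coding genes (234.13 and 148.68). RVE7 had low scores over its upper end (53.67 and 56.56), with AT1G18335 nearer in list 1. A higher-scoring site of both lists below RVE7 (137.31 and 160.8) was nearest to NUDT4. RVE4 and RVE8, which activate evening genes, had no peak.

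In the LNK family, coactivators that work with RVE proteins, LNK3 had peaks over its lower end (158.47 and 379.42). The LNK4 peaks lay inside the gene (57.01 and 122.35), and LNK1 and LNK2 had none. TCP21 (AT5G08330), also called CHE, a TCP factor that represses CCA1, was overlapped in both lists (209.84 and 120.71), and the list 1 peak covered the whole gene. TIC, a nuclear regulator of clock period, had 1 list 1 peak of 10193 bp (391.13), which also held the whole gene AOX1A. In it lay 3 list 2 peaks (246.31, 76.09 and 119.25), the highest of them nearest to AOX1A and the others to TIC. Another list 2 peak lay inside TIC (64.8). CDF1, a DOF repressor of the flowering gene CO, had peaks over its upper end (387.9 and 266.65). A list 1 peak without a list 2 partner lay over 529 bp of its lower end (170.59, nearest to AT5G62420 among protein-coding genes). No difference between these genes and the core was tested.

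BOA, the close paralogue of LUX, had no peak of its own. Among protein-coding genes, a peak of both lists below it (146.23 and 75.0) was nearest to RDUF2, as the second site below LUX was to RDUF1. FIO1 had a site of both lists nearest to GRP2B (61.51 and 108.47). FKF1, SKIP and BBX19 had a peak in list 1 alone, and CDF2 and CDF3 in list 2 alone. No peak lay within 5000 bp of the other 18 genes in either list, among them PRR3, ZTL and LKP2, the outputs GRP7 and GRP8, and the flowering genes CO and FT. By list, 13 of the 33 genes had a peak in list 1 (21.4% of all genes) and 12 in list 2 (15.4%). In each list, then, most genes had none, in this set and among all genes.

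**Figure D4:**
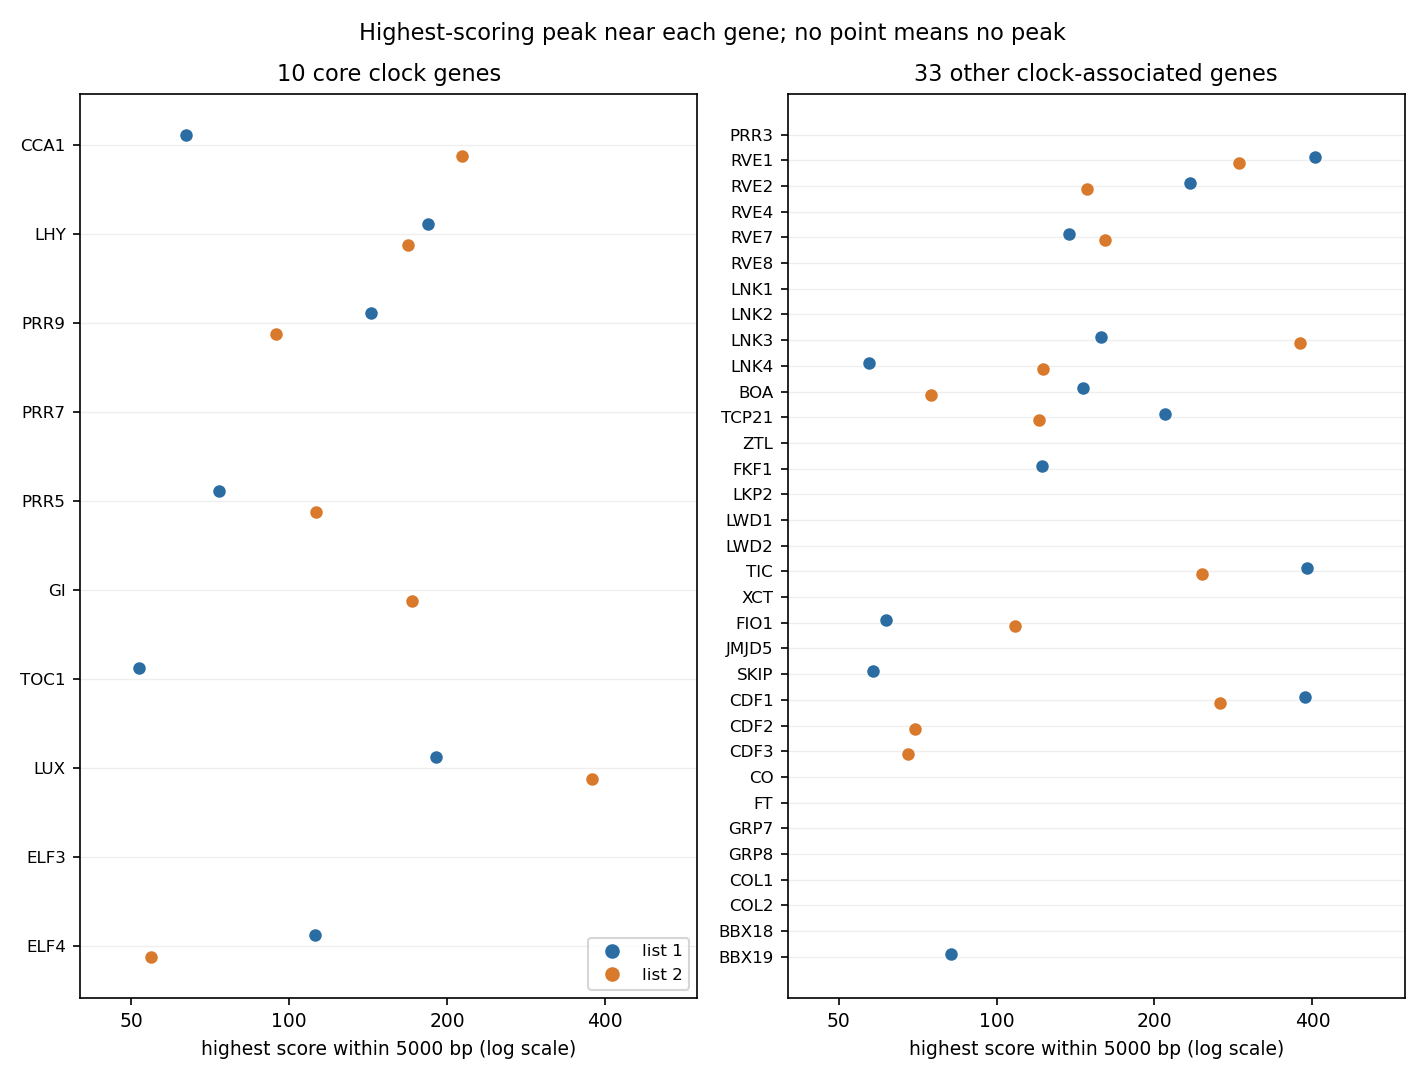
Highest score of any peak within 5000 bp of each gene (horizontal axis, log scale) in list 1 (blue) and list 2 (orange), for the 10 core clock genes (left) and 33 other clock-associated genes (right); a row without a point has no peak. PRR7 and ELF3 are empty on the left, and RVE1, TIC, CDF1 and LNK3 reach the highest values on the right. Another gene had the nearest end at both RVE1 points (UGP2) and at the list 2 point of TIC (AOX1A).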

How the data were processed

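SMXL6-HA ChIP-seq and control libraries were compared pairwise by number, per the labels. Each of the 2 deposited files is a peak list with positions and a score per peak, made by the authors. MACS 1.4.2, BWA 0.7.10-r789, SAMtools and the build TAIR10 are named in the submitters' processing notes. Parameters, depth and any duplicate removal were not found in the labels. The score was taken as the peak caller's log-transformed p, since only 1 score was under 50, which on that scale is a p of 1e-05. Ranks were taken within a list only.

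Gene ends came from RefSeq's TAIR10.1 table (same nuclear sequence), which gives neither strand nor sequence. The planned upstream side was therefore replaced by lower and higher coordinates, and the planned motif counts were not run. LUX was matched by synonym and the other 9 genes by symbol. Distance is from peak edge to gene edge, and 0 where they overlap. Peaks were joined to genes with Python 3.11.15 and pandas 2.3.3, and the rules were tested on simulated data. All core genes were named, and clock-associated genes with a peak in both lists. Genes with a peak in one list, BOA's neighbour and genes without peaks were named after their values were seen. Members and lists were chosen with earlier results of these data known. Of the clock-associated names 4 had no match (RVE3, RVE5, RVE6 and CDF5). Alternatives were other distances, score minimums, overlap rules, trimmed peaks, single lists and other phase classes.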

Additional observations from a re-analysis of the deposited data

How the results depend on the processing

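The 6 clock genes with a peak in both lists became 5 with distances of 1000, 2000 or 3000 bp (5.13%, 6.97% and 8.66% of all genes). They stayed 6 when the peaks had to overlap by 1 bp (11.5%) and with scores of at least 50 (12.2%). The count was also 6 when wide list 1 peaks were narrowed to the median list 2 width (11.6%). With reciprocal overlap of 50% there were 3 (LHY, LUX and ELF4, 5.8% of all genes), 1 of them with the peak below the gene (2.57%). Clock-associated genes fell from 10 to 6 under this rule (5.8% of all genes). List 1 peaks were wider than list 2 peaks, and the part of width in this fall was not tested. With scores of at least 100 there were 2 (LHY and LUX; 5.33%), 1 with the peak below (2.24%) and 1 above (2.4%), and 1 gene with its own peak in both lists (LHY; 1.35%). Single lists (without replicate 1 or without replicate 2) gave 7 clock genes each (15.4% and 21.4% of all genes), 5 and 6 with their own peak against 3 in both (4.85% and 6.19%), 4 and 3 with a peak below (7.36% and 10.4%), 3 and 4 above (7.39% and 10.6%), and 12 and 13 clock-associated genes; by class they gave 2 morning, 2 day and 3 evening genes. The day class fell from 2 genes to 1 with PRR9 counted as a morning gene (1 of 2 genes, against 12.2% of all genes). It also fell to 1 with a distance of 1000 bp (5.13% of all genes). With GI counted as a day gene, 2 of 4 day and 2 of 4 evening genes had peaks in both lists (12.2% of all genes). Without that change they were 2 of 3 and 2 of 5. The GI peak of list 2 (171.86) scored above that of LHY (168.61). In list 2 the day scores then no longer all lay below both morning scores. No paired analysis was possible because each list is already 1 pair of libraries and the result comes from no test. Without depth, an absent peak cannot be read as absence of binding.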
